A study of Mus musculus with 24 samples.

Results

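The genes of mitochondrial protein import, fusion and fission were followed across 13 polyA RNA libraries of mouse hearts. Members were every gene of the deposited expression table whose symbol begins with Tomm or Timm and a digit, together with Mfn1, Mfn2, Opa1, Dnm1l, Fis1, Mff, Samm50, Immt, Oma1 and Yme1l1, which gave 35 of 23998 genes. Of these, 34 reached a mean of 1 FPKM over the libraries and were tested. Timm8a2, a second copy of a small TIM gene, was not tested: it was listed at 0 in all libraries other than mutTg control virus replicate 2.

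All mice were on the CD1 strain background and carried a transgene for the human allele of MYL2, the regulatory light chain of ventricular myosin, and hearts were taken at 4 months. mutTg mice carried a mutated allele and wtTg mice the normal one, per the sample names. The genotype field of the labels reads RLC-47K L6 for all samples, wtTg included, and the labels do not name the promoter of the transgene. There were 4 groups. The mutTg shRNA group (4 hearts, replicates 5 to 8) had been given AAV9, an adeno-associated virus, encoding the M7.8L shRNA at 3 days of age. The mutTg control virus group (3 hearts, replicates 1 to 3) had a control virus at that age. The mutTg untreated group (3 hearts, replicates 9 to 11) had no virus. The wtTg control virus group (3 hearts, replicates 2 to 4), called wtTg below, had the control virus.

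Mitochondria import nearly all of their proteins from the cytosol. Precursors pass the outer membrane through the TOM complex, built on the pore Tomm40 with receptors such as Tomm20, Tomm22 and Tomm70a, and are then handed to the presequence translocase (Timm23, Timm17, Timm50, Timm44, Timm21), to the carrier translocase (Timm22, fed by the small TIM chaperones), or to the outer membrane assembly complex around Samm50. Fusion is driven by the mitofusins Mfn1 and Mfn2 in the outer membrane and by Opa1 in the inner membrane, fission by the dynamin-related GTPase Dnm1l with its outer membrane adaptors Mff and Fis1, and cardiac muscle, which is packed with mitochondria, depends on both.

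Values are FPKM, fragments scaled by transcript length and by the mapped fragments of the library, after alignment of the libraries on their medians, and each gene's level is therefore per length. Sums of deposited FPKM ran from 580948 to 1701499 and the log2 shifts removed by alignment from -0.45 (untreated replicate 10) to 0.71 (shRNA replicate 8); read depth is unknown. A row named hMyl2 was 229, 419.6 and 317 FPKM as deposited in shRNA replicates 5, 6 and 7 and listed at 0 in the other 10 libraries, wtTg included, and the row shRNA was 0 in every library. Neither row checks the labels of treatment or genotype. Six3, a homeobox gene that is not a member, was 0, 0.0913 and 0 FPKM as deposited in shRNA replicates 5, 6 and 7 and 60.6 FPKM in replicate 8, against 23.8 to 27.6 FPKM in mutTg control virus, 13.6 to 25.2 FPKM in mutTg untreated and 0 to 0.0791 FPKM in wtTg hearts. Replicates 5 to 7 were thus at the wtTg level and replicate 8 was above the mutTg hearts without shRNA. By Ddx3y, a Y-linked gene, shRNA replicates 5 to 7 were male and replicate 8 female, the 3 mutTg control virus hearts were female, and the untreated and wtTg groups each held 2 males and 1 female. Whether all 4 hearts labelled shRNA have the genotype and treatment of their labels was not tested, and each comparison of that group rests on the labels. The group is given with and without replicate 8.

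Promoter sequences are shown for 5 of the 7 members that passed the test both between mutTg and wtTg hearts that had the control virus and between shRNA and control virus. These 5 had windows with a match to 1 of the first 3 motifs below, and 4 of them were lower and Tomm34 higher in mutTg. Of the 7, Oma1 had a window without a match and is not shown, and no window was found for Timm21. The sequences shown were thus chosen for holding a match. They are RefSeq windows of build GRCm38.p6 running from 250 bases before to 50 bases after the annotated start, printed 5′ to 3′ on the gene's strand. Capitals mark matches, on either strand, to motifs named for regulators of nuclear genes of mitochondria: GCATGCG for NRF1, CCGGAAG for GABP and other ETS factors, and AAGGTCA for estrogen-related receptors. Opa1 lies at chr16:29579084-29579383 on the plus strand, with NRF1 matches beginning at -58 and -57 that overlap each other. Mfn1 lies at chr3:32529232-32529531 on the plus strand with an ETS match at -44, and Immt at chr6:71831070-71831369 on the plus strand with ETS matches at -119 and 28. Timm44 lies at chr8:4275856-4276155 on the minus strand with an estrogen-related receptor match at -5, and Tomm34 at chr2:164071120-164071419 on the minus strand with an ETS match at -39.
Opa1: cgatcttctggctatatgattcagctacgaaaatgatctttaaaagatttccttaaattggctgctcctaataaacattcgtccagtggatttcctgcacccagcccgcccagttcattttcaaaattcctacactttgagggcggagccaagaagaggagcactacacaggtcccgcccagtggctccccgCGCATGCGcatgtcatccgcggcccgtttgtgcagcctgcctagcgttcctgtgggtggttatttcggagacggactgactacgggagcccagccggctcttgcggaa
Mfn1: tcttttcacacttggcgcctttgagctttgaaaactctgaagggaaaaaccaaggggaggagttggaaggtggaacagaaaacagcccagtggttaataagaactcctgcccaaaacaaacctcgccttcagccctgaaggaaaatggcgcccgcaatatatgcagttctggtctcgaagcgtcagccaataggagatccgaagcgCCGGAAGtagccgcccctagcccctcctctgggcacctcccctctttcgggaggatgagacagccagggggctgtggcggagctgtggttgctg
Immt: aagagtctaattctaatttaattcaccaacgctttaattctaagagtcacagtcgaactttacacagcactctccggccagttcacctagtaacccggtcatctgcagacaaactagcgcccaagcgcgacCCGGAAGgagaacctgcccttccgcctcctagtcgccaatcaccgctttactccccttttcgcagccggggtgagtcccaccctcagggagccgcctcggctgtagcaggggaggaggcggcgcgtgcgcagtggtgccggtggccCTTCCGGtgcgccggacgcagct
Timm44: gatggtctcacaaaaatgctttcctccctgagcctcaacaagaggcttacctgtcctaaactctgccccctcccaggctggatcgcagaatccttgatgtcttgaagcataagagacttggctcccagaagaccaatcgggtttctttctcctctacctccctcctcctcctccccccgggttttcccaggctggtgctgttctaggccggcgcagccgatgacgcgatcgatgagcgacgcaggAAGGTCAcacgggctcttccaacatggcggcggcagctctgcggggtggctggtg
Tomm34: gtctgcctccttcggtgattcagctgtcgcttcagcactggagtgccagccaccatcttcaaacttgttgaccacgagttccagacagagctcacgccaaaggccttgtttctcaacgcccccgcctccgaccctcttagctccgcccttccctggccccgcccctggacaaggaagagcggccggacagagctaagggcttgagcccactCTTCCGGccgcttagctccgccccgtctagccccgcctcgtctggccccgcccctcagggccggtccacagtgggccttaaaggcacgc

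A window was found for 32 of the 35 members, and for 6 of these with more than 1 window the first listed was used. CCGGAAG occurred in 13 of 32 member windows (40.6%) and in 9.12% of 27025 windows of all genes. GCATGCG occurred in 2 member windows, of Opa1 and Timm13 (6.25%, against 3.64% of all windows), and AAGGTCA in 3, of Timm23, Timm44 and Timm8b (9.38%, against 4.66%). CACGTG, an E-box, was also searched and occurred in 6 member windows (18.8%, against 7.24%). Tomm34, which differed in the opposite direction to the other 4 genes shown, shares the ETS match with Mfn1 and Immt. The windows of all genes were not limited to genes expressed in these hearts, whereas 34 of the 35 members reached the expression filter. The shares among expressed genes were not computed. A match is a description of the sequence and no occupancy was measured.

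Hearts of mutTg mice with control virus were compared with wtTg hearts with the same virus. The allele differed here under the same vector, but sex differed too. The 3 mutTg control virus hearts were female, while 2 wtTg hearts were male and 1 female. Allele and sex therefore cannot be fully told apart in this comparison. Of the members, 6 fell in mutTg hearts: Opa1, the inner membrane fusion GTPase, fell 2.02-fold, Mfn1 1.73-fold, the cristae organiser Immt 1.67-fold, Timm44 and Timm21, 2 of 6 genes of the presequence translocase, 1.58-fold and 1.49-fold, and the stress-activated protease Oma1 1.44-fold. Tomm34, a cytosolic cochaperone of Hsp70 and Hsp90 that is no subunit of the TOM complex, rose 1.26-fold. Of the 34 members, 1 passed upward and 6 downward by limma (Benjamini-Hochberg adjusted p under 0.05), against 11.2% and 12.0% of all 12980 genes tested, and 27 did not pass. The share of members that fell, 17.65%, was thus near that of all genes. The median log2 difference was -0.25 over the members and -0.015 over all genes, and 18 members lay below the wtTg libraries without overlap and 2 above, against 28.6% and 26.1% of all genes.

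The count depended on which libraries entered. It was 1, 1 and 3 without mutTg control virus replicates 1, 2 and 3, and 0, 1 and 1 without wtTg replicates 2, 3 and 4, and 16 (1 higher, 15 lower, against 18.9% and 20.2% of all genes) without shRNA replicate 8, which enters this comparison only through the shared spread. The 9 members gained without it were Dnm1l, Mfn2, Samm50, Timm22, Timm23, Timm50, Timm8b, Tomm40 and Tomm40l, all lower. With sex as a covariate 1 member passed, Opa1, and 11 did when the fit also dropped shRNA replicate 8. Apart from the fit that only left out shRNA replicate 8, shares of all genes called are not given for these fits. Their counts therefore do not show a change particular to the members. Within females, the 3 mutTg control virus hearts lay below the 1 wtTg heart for 21 of 34 members and above it for 5, against 39.0% and 35.7% of all genes.

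Hearts of untreated mutTg mice were set against the same wtTg hearts. The untreated hearts had no virus and the wtTg hearts had the control virus, so allele and virus cannot be told apart in this comparison. Here 16 members fell and 1, Tomm34, rose by limma (adjusted p under 0.05), against 15.5% and 10.1% of all genes, so that 47.1% of the members fell; 17 did not pass. Among those that fell were the pore Tomm40 (1.71-fold), the small TOM subunit Tomm5 (1.55-fold), Timm23, the channel of the presequence translocase (1.96-fold), the small TIM Timm8b (1.92-fold) and Samm50 (1.69-fold). The median was -0.38 over the members and -0.014 over all genes. The groups did not overlap for 23 members below and 1 above the wtTg libraries, against 28.5% and 23.5% of all genes.

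Leaving out 1 library lowered this count too, to 11, 3 and 5 without untreated replicates 9, 10 and 11, and to 3, 5 and 6 without wtTg replicates 2, 3 and 4. Shares of all genes called are not given for these fits, so the drops are not shown to be particular to the members. Tomm40 and Tomm5 passed in all 18 alternatives tried for this comparison. Each other member that passed lost its call in some of them, from 1 for Timm44 to 11 for Timm17b and Timm50 and 12 for Tomm22. Without shRNA replicate 8 the count was 19 (1 higher, 18 lower, against 17.2% and 22.1% of all genes), with Fis1 and Timm22 gained. Within males, where 2 untreated mutTg and 2 wtTg hearts could be compared, 26 members lay below and 2 above without overlap, against 36.0% and 33.3% of all genes.

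The effect of the shRNA label was asked within mutTg, against control virus. Among the members that passed, Mfn1 rose in hearts labelled shRNA 1.89-fold, Opa1 1.76-fold, Immt 1.66-fold, Timm44 1.65-fold, Timm50 1.64-fold and Oma1 1.55-fold, while Tomm34 fell 1.26-fold. By limma 16 members rose and 1 fell (adjusted p under 0.05), against 14.6% and 11.2% of all genes; 17 did not pass. The share of members that rose was 47.1%. Scaling moved the count, which was 27 on FPKM as deposited and 8 with equal FPKM totals, and the members' median log2 difference, which was 0.82 and 0.08 under these scalings, against 0.47 and -0.23 over all genes. The shares of all genes called under these scalings are not given. The median was 0.38 over the members and 0.024 over all genes, and 13 members lay above the control virus libraries without overlap and 1 below, against 13.1% and 9.58% of all genes. This comparison and the one between mutTg and wtTg with control virus share the 3 mutTg control virus libraries, so opposite signs in them are not independent.

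Replicate 8 lay below each of shRNA replicates 5, 6 and 7 for 29 of 34 members and above them for 1, against 36.4% and 37.4% of all genes. It was within the range of the 6 mutTg libraries without shRNA for 23 members and within that of wtTg for 11. A range over 6 libraries tends to be wider than one over 3, and the shares of all genes within these ranges were not computed. These 2 counts therefore do not show which group replicate 8 is nearer to. Without replicate 8, 25 members passed, 24 higher and 1 lower, against 25.4% and 23.0% of all genes. The 8 gained were Fis1, Mff, Timm10b, Timm17a, Timm17b, Timm22, Timm23 and Tomm40l. Without shRNA replicates 5, 6 and 7 the count was 5, 5 and 4, and without mutTg control virus replicates 1, 2 and 3 it was 0, 7 and 3. A fit on the compared groups alone gave 0, and 0 members passed with sex as a covariate, against 14 when the fit also dropped replicate 8. Apart from the fit that only left out replicate 8, shares of all genes called are not given for these fits. Their counts therefore do not show a change particular to the members. Every call on a member in this comparison was lost in some of the 18 alternatives tried. The number lost ran from 3 for Opa1, Oma1 and Timm44 to 13 for Dnm1l, Timm21, Tomm22, Tomm70a and Yme1l1. Since replicates 5 to 7 were male and the control virus hearts female, sex and the shRNA label cannot be told apart for them. The only female heart labelled shRNA, replicate 8, lay above the 3 female control virus hearts for 13 members and below them for 6, against 30.9% and 23.0% of all genes. Among males, shRNA replicates 5 to 7 lay above the 2 untreated mutTg hearts for 28 members and below them for 1, against 33.0% and 29.9% of all genes. These untreated hearts had no virus, so the shRNA and the virus cannot be told apart there.

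Between mutTg shRNA and wtTg hearts 0 of 34 members passed by limma, 3 had an unadjusted p under 0.05 and the smallest adjusted p was 0.326; of all genes, 0.0539% were higher and 0.0539% lower. The groups did not overlap for 3 members above and 1 below, against 5.56% and 5.45% of all genes. Without replicate 8, Timm50 and Timm10 were higher in mutTg shRNA hearts (adjusted p = 0.0365 and 0.0384, limma), against 3.24% of all genes higher and 2.44% lower; among males, shRNA replicates 5 to 7 lay above the 2 wtTg hearts for 19 members and below them for 1, against 22.8% and 18.8% of all genes. Between mutTg control virus and mutTg untreated hearts 0 members passed by limma, 5 had an unadjusted p under 0.05 and the smallest adjusted p was 0.453, while 0 of the 12980 genes were called (0.00770% higher and 0% lower without shRNA replicate 8, with 0 members). Here 8 members lay above without overlap and 0 below, against 11.5% and 8.88% of all genes. The counts of 7 and 17 members in the comparisons of control virus and of untreated hearts with wtTg are therefore not shown to differ by group.

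**Figure D1:**
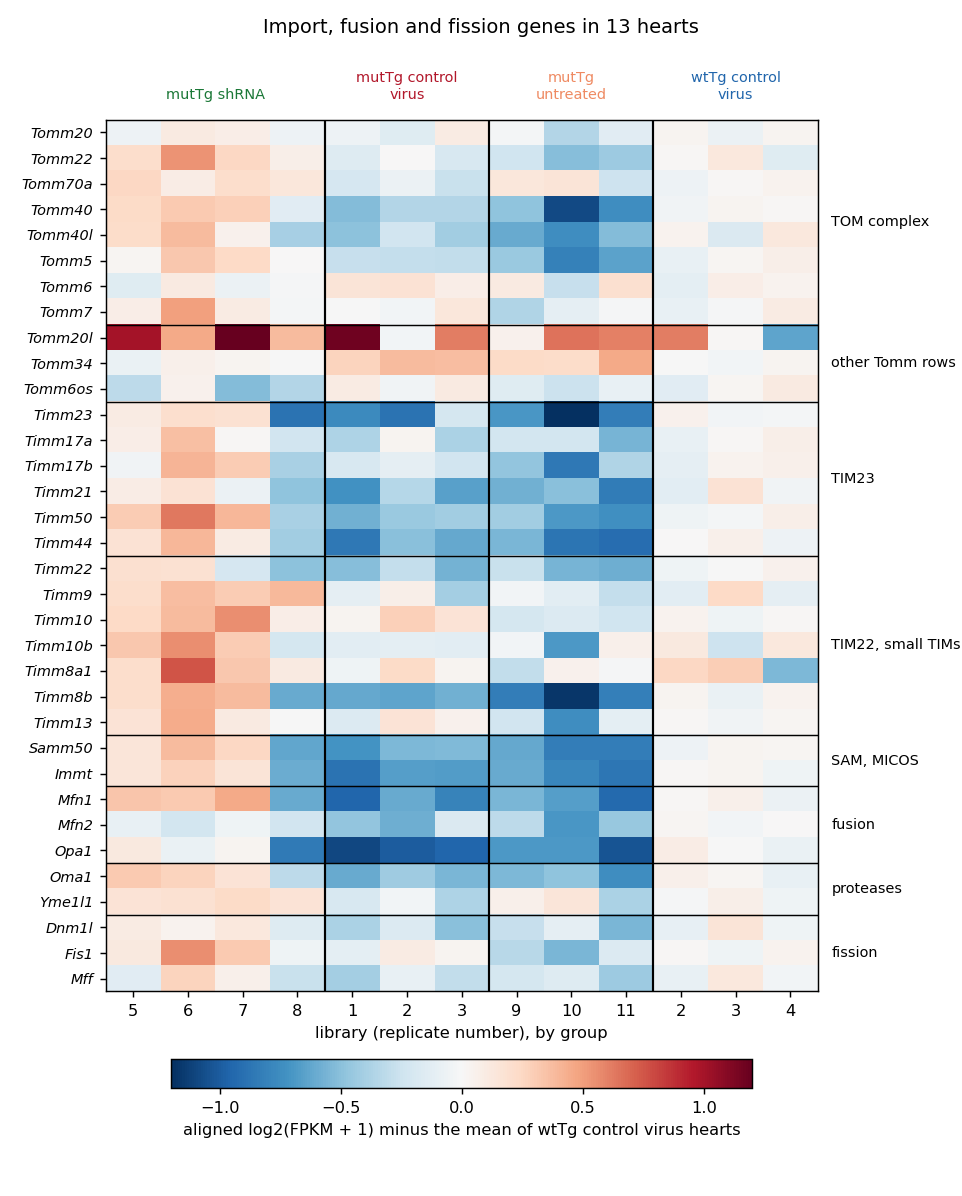
Aligned log2(FPKM + 1) of each tested member in each library, minus the member's mean over the wtTg libraries. Members run down in role order and libraries across by group, and colours end at 1.2 log2 units either way. For Opa1, Mfn1, Immt and Timm44 the mutTg libraries without shRNA are low, and shRNA replicate 8 is close to them. For these genes shRNA replicates 5 to 7 are near or above the wtTg mean. The wtTg libraries lie near the middle of the scale because their mean was subtracted.

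**Figure D2:**
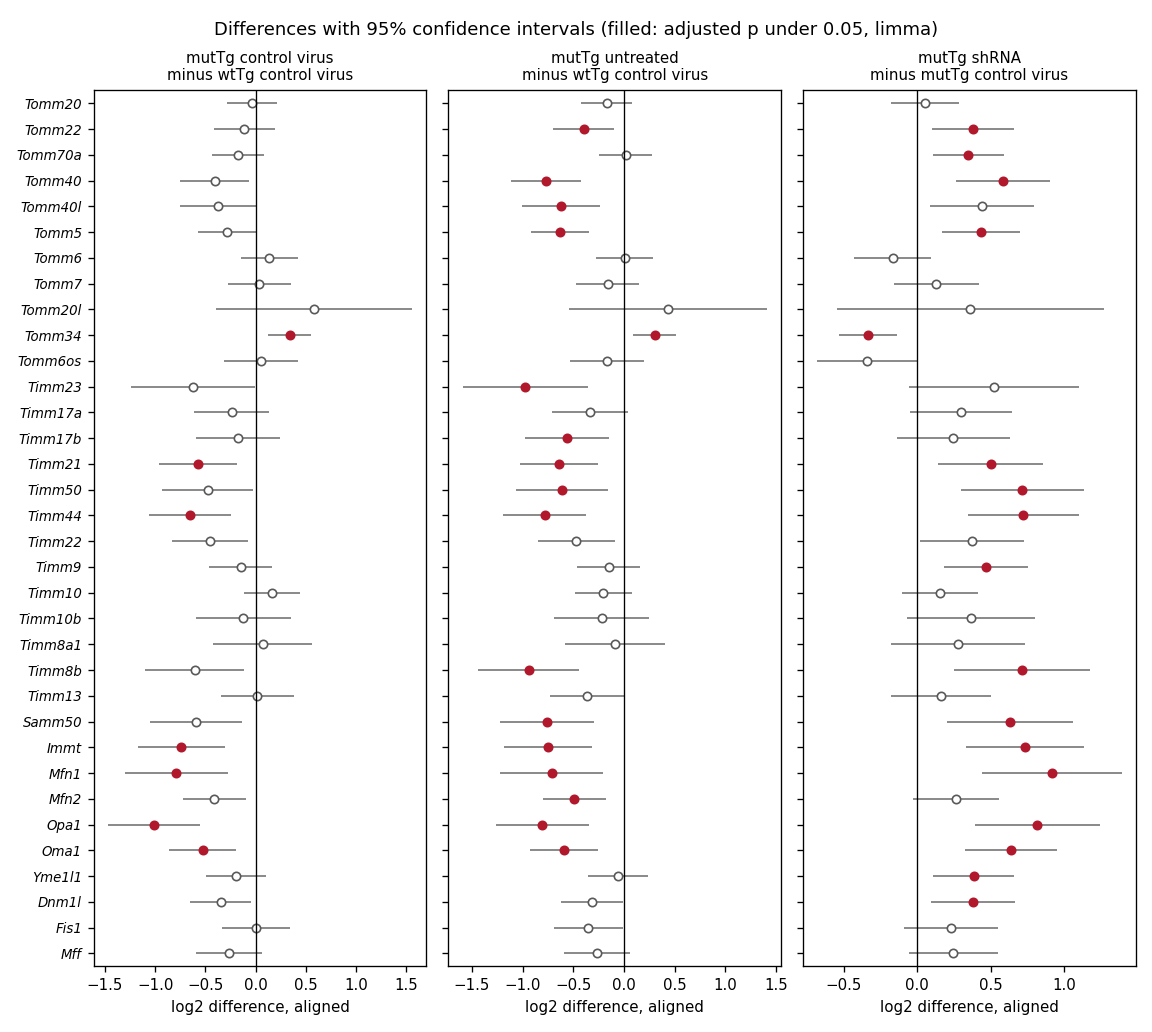
Log2 difference of each tested member (down the page, in role order) for mutTg control virus minus wtTg, mutTg untreated minus wtTg and mutTg shRNA minus mutTg control virus, with 95% intervals from limma; points are filled where the adjusted p was under 0.05. The medians were -0.25 for mutTg control virus against wtTg and 0.38 for mutTg shRNA against mutTg control virus.

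In the values below, hearts are listed in the order of replicates 5, 6, 7 and 8 for mutTg shRNA, 1, 2 and 3 for mutTg control virus, 9, 10 and 11 for mutTg untreated, and 2, 3 and 4 for wtTg. Levels in wtTg hearts ran from 643 ± 13.1 FPKM (SD, n = 3) for Mfn2 and 623 ± 17.9 FPKM for Immt to 17.7 ± 0.74 FPKM for Tomm20, 10.3 ± 3.26 FPKM for Timm8a1 and 0.57 ± 0.66 FPKM for Tomm20l, a copy of Tomm20.

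Of the TOM complex, Tomm40, the pore, was 137, 146, 143 and 106 FPKM in mutTg shRNA hearts and 81.5, 91.3 and 91.6 FPKM in mutTg control virus hearts. It was 83.4, 54.8 and 69.2 FPKM in mutTg untreated hearts and 113, 119.8 and 118 FPKM in wtTg hearts. All 6 mutTg hearts without shRNA lay below the 3 wtTg hearts, and all 4 hearts labelled shRNA lay above the control virus hearts. Tomm40 fell in untreated mutTg against wtTg hearts (log2 difference -0.77, 95% interval -1.11 to -0.44, adjusted p = 0.00904, limma) and rose in shRNA against control virus hearts (0.58, 0.27 to 0.89, adjusted p = 0.0181), but its difference between control virus and wtTg did not pass (-0.41, adjusted p = 0.0702). Tomm40l, a paralogue of the pore protein, was 65.5, 73.3, 58.1 and 42.4 FPKM in mutTg shRNA hearts and 39.7, 47.8 and 41.8 FPKM in mutTg control virus hearts. It was 36.4, 33.1 and 38.9 FPKM in mutTg untreated hearts and 57.9, 49.7 and 61.2 FPKM in wtTg hearts. It was lower than wtTg in all 6 mutTg hearts without shRNA and passed in the untreated ones (adjusted p = 0.0237, limma).

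The 3 receptors had smaller log2 differences than the pore in these 3 comparisons, a contrast that was not tested. Tomm20, a presequence receptor, was 16.9, 19.2, 18.8 and 16.9 FPKM in mutTg shRNA hearts and 16.9, 16.0 and 19.0 FPKM in mutTg control virus hearts. It was 17.4, 13.7 and 16.0 FPKM in mutTg untreated hearts and 18.1, 16.9 and 18.1 FPKM in wtTg hearts, and all groups overlapped. Tomm22, the central receptor that joins pore and receptors, was 184, 233, 190.3 and 168 FPKM in mutTg shRNA hearts and 144, 159.8 and 139.8 FPKM in mutTg control virus hearts. It was 135, 111 and 118 FPKM in mutTg untreated hearts and 162, 175 and 144 FPKM in wtTg hearts. It passed in untreated mutTg against wtTg (1.32-fold lower, adjusted p = 0.0475) and in shRNA against control virus (1.30-fold higher, adjusted p = 0.0427; limma), without overlap in either. Tomm70a, the receptor for carrier precursors, was 81.1, 72.7, 78.9 and 74.9 FPKM in mutTg shRNA hearts and 59.3, 64.8 and 56.7 FPKM in mutTg control virus hearts. It was 75.4, 75.9 and 57.4 FPKM in mutTg untreated hearts and 65.6, 69.2 and 70.2 FPKM in wtTg hearts. It passed in shRNA against control virus (1.27-fold higher, adjusted p = 0.0351, limma), while its untreated hearts overlapped the wtTg ones.

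Tomm5, a small subunit, was 403, 496, 468 and 399.9 FPKM in mutTg shRNA hearts and 328, 326 and 323 FPKM in mutTg control virus hearts. It was 292, 226 and 255 FPKM in mutTg untreated hearts and 374, 404 and 417 FPKM in wtTg hearts. The untreated hearts were the lowest and the 3 control virus hearts lay between them and wtTg, with no overlap between any of these 3 groups. Tomm5 fell in untreated against wtTg hearts (-0.63, -0.91 to -0.36, adjusted p = 0.00925, limma) and rose in shRNA against control virus hearts (1.35-fold, adjusted p = 0.0244). The small subunits Tomm6 and Tomm7 passed in no comparison. Of the 8 tested subunits, 0 passed between control virus and wtTg, 4 fell in untreated hearts and 4 rose in shRNA hearts, against 12.0% of all genes lower, 15.5% lower and 14.6% higher. The medians were -0.15 with control virus, -0.28 untreated and 0.36 in shRNA hearts. No list of subunits was tested against the shares of all genes.

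Of the presequence translocase, which takes precursors with a cleavable targeting sequence into the matrix, Timm44, the anchor of the import motor, was 179.6, 209, 169.5 and 119 FPKM in mutTg shRNA hearts and 87.0, 112 and 104 FPKM in mutTg control virus hearts. It was 108, 85.9 and 83.5 FPKM in mutTg untreated hearts and 159, 166 and 152 FPKM in wtTg hearts. The 6 mutTg hearts without shRNA were all below the 3 wtTg hearts, and the 4 hearts labelled shRNA all above the control virus ones. Timm44 fell in control virus against wtTg hearts (-0.66, -1.05 to -0.26, adjusted p = 0.0262), fell in untreated against wtTg hearts (-0.78, adjusted p = 0.0145) and rose in shRNA against control virus hearts (0.72, adjusted p = 0.0167; limma). Timm21, a subunit that links the translocase to TOM, was 83.2, 88.6, 74.6 and 55.6 FPKM in mutTg shRNA hearts and 46.9, 61.6 and 49.6 FPKM in mutTg control virus hearts. It was 52.0, 55.1 and 43.4 FPKM in mutTg untreated hearts and 71.5, 88.4 and 75.8 FPKM in wtTg hearts. It was lower than wtTg in both mutTg groups without shRNA (adjusted p = 0.0342 with control virus and 0.0223 untreated, limma) and higher in shRNA hearts (adjusted p = 0.0404), where shRNA replicate 8 overlapped the control virus hearts.

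Timm23, the channel subunit, was 58.8, 63.2, 62.4 and 29.1 FPKM in mutTg shRNA hearts and 31.7, 29.1 and 47.1 FPKM in mutTg control virus hearts. It was 33.3, 20.2 and 30.4 FPKM in mutTg untreated hearts and 56.9, 53.6 and 53.6 FPKM in wtTg hearts. Replicate 8 was at the low end of the control virus hearts and the other shRNA replicates above wtTg. With all libraries it passed in untreated against wtTg hearts alone (1.96-fold lower, adjusted p = 0.0276, limma). Without replicate 8 it also passed in control virus against wtTg (-0.62, adjusted p = 0.0172) and in shRNA against control virus (0.79, adjusted p = 0.00333; limma). Timm50, the receptor of the translocase, was 101, 127, 108 and 61.7 FPKM in mutTg shRNA hearts and 54.1, 59.6 and 60.8 FPKM in mutTg control virus hearts. It was 60.8, 50.2 and 48.3 FPKM in mutTg untreated hearts and 78.7, 80.2 and 85.3 FPKM in wtTg hearts. The hearts labelled shRNA were higher than the control virus hearts (1.64-fold, adjusted p = 0.0222, limma), with replicate 8 just above the highest of these. Timm17a, the more abundant form of the other channel subunit, passed in none of the comparisons with all libraries, while Timm17b fell in untreated hearts (1.48-fold, adjusted p = 0.0435, limma). Without replicate 8 both passed upward in shRNA against control virus (adjusted p = 0.0326 for Timm17a and 0.0318 for Timm17b, limma). With all libraries, over the 6 tested subunits, 2 fell with control virus, 5 fell untreated and 3 rose in shRNA hearts, against 12.0%, 15.5% and 14.6% of all genes.

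Of the carrier pathway, which inserts metabolite carriers into the inner membrane, Timm8b, a small TIM chaperone, was 413, 485, 465 and 234 FPKM in mutTg shRNA hearts and 233, 229.7 and 239.7 FPKM in mutTg control virus hearts. It was 200.1, 158 and 202 FPKM in mutTg untreated hearts and 365, 339 and 369 FPKM in wtTg hearts. The untreated hearts were lowest and the control virus hearts lay between them and wtTg, with replicate 8 among the control virus hearts. Timm8b fell in untreated hearts (1.92-fold, adjusted p = 0.0152) and rose in shRNA hearts (1.64-fold, adjusted p = 0.0294; limma), and its difference between control virus and wtTg did not pass (-0.61, adjusted p = 0.0638). Timm10, a chaperone of the intermembrane space that works in a ring with Timm9, was 210.3, 233, 263 and 188 FPKM in mutTg shRNA hearts and 182, 217 and 200.1 FPKM in mutTg control virus hearts. It was 154, 159 and 151 FPKM in mutTg untreated hearts and 183, 172 and 180.3 FPKM in wtTg hearts. Control virus and shRNA hearts reached or passed the wtTg level while untreated hearts lay below it, and no difference passed with all libraries. Timm9 itself rose in shRNA hearts (1.38-fold, adjusted p = 0.0241, limma), with replicate 8 the highest library, at 51.9 FPKM. Of 7 tested genes of this pathway, 0 passed with control virus, 1 fell untreated and 2 rose in shRNA hearts. These counts are not shown to differ from the 12.0% of all genes lower, 15.5% lower and 14.6% higher in these comparisons. Timm22, the channel, Timm10b, Timm13 and Timm8a1 passed in no comparison with all libraries. Without replicate 8 Timm22 passed in control virus against wtTg, untreated against wtTg and shRNA against control virus (adjusted p = 0.0152, 0.0125 and 0.00610), and Timm10b in the last of these (adjusted p = 0.0253; limma).

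Samm50, the core of the complex that assembles barrel proteins in the outer membrane, was 412, 484, 443 and 242 FPKM in mutTg shRNA hearts and 226, 256 and 258 FPKM in mutTg control virus hearts. It was 244, 208 and 209 FPKM in mutTg untreated hearts and 357, 381 and 379 FPKM in wtTg hearts. The 6 mutTg hearts without shRNA were all below wtTg, and replicate 8 lay among the control virus hearts. Samm50 fell in untreated hearts (adjusted p = 0.0235) and rose in shRNA hearts (adjusted p = 0.0345), and missed the threshold in control virus against wtTg hearts (-0.59, adjusted p = 0.0550; limma). Immt, the mitofilin subunit of the complex that holds cristae junctions (MICOS) and a partner of Samm50, was 689, 754, 692 and 411 FPKM in mutTg shRNA hearts and 338, 393 and 391 FPKM in mutTg control virus hearts. It was 409.7, 361 and 340.2 FPKM in mutTg untreated hearts and 630.0, 636 and 603 FPKM in wtTg hearts. The mutTg hearts without shRNA were again below wtTg without overlap, and the 4 shRNA hearts above control virus. It passed in control virus against wtTg (-0.74, -1.16 to -0.32, adjusted p = 0.0228), in untreated against wtTg (-0.75, adjusted p = 0.0199) and in shRNA against control virus (0.73, adjusted p = 0.0184; limma).

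Among the fusion genes, Opa1 was 147, 128, 138 and 74.8 FPKM in mutTg shRNA hearts and 63.0, 67.3 and 69.7 FPKM in mutTg control virus hearts. It was 83.3, 83.5 and 65.7 FPKM in mutTg untreated hearts and 144, 135 and 128 FPKM in wtTg hearts. Each mutTg heart without shRNA was below each wtTg heart, shRNA replicates 5 to 7 lay at the wtTg level, and replicate 8 was closer to the mutTg hearts without shRNA. Opa1 had the largest fall of the members with control virus (-1.01, -1.46 to -0.56, adjusted p = 0.0111), fell in untreated hearts (-0.81, adjusted p = 0.0191) and rose in shRNA hearts (0.82, 0.40 to 1.24, adjusted p = 0.0166; limma). Among females alone, Opa1 was 63.0 to 69.7 FPKM in the 3 mutTg control virus hearts, against 128 FPKM in the wtTg heart.

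Mfn1, a mitofusin, was 281, 277, 305 and 146 FPKM in mutTg shRNA hearts and 114, 146 and 127 FPKM in mutTg control virus hearts. It was 152, 139.7 and 116 FPKM in mutTg untreated hearts and 224, 232 and 211 FPKM in wtTg hearts. Replicates 5 to 7 of the shRNA group were above every wtTg heart, and replicate 8 was within the range of mutTg hearts without shRNA. It fell with control virus (-0.79, -1.29 to -0.29, adjusted p = 0.0311) and untreated (-0.71, adjusted p = 0.0405), and rose in shRNA hearts (0.91, 0.45 to 1.38, adjusted p = 0.0166; limma). Mfn2, the other mitofusin, which also tethers mitochondria to the endoplasmic reticulum, was 603, 551, 622 and 549 FPKM in mutTg shRNA hearts and 462, 427 and 571 FPKM in mutTg control virus hearts. It was 517, 395 and 469.8 FPKM in mutTg untreated hearts and 655, 629 and 645 FPKM in wtTg hearts. It had the highest level of the members in wtTg and smaller differences than Mfn1, and its shRNA hearts, replicate 8 included, lay within 549 to 622 FPKM, all below wtTg. Mfn2 passed in untreated hearts (-0.49, adjusted p = 0.0271), missed the threshold with control virus (-0.41, adjusted p = 0.0510) and did not pass between shRNA and control virus (0.26, -0.02 to 0.55, adjusted p = 0.148; limma).

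**Figure D3:**
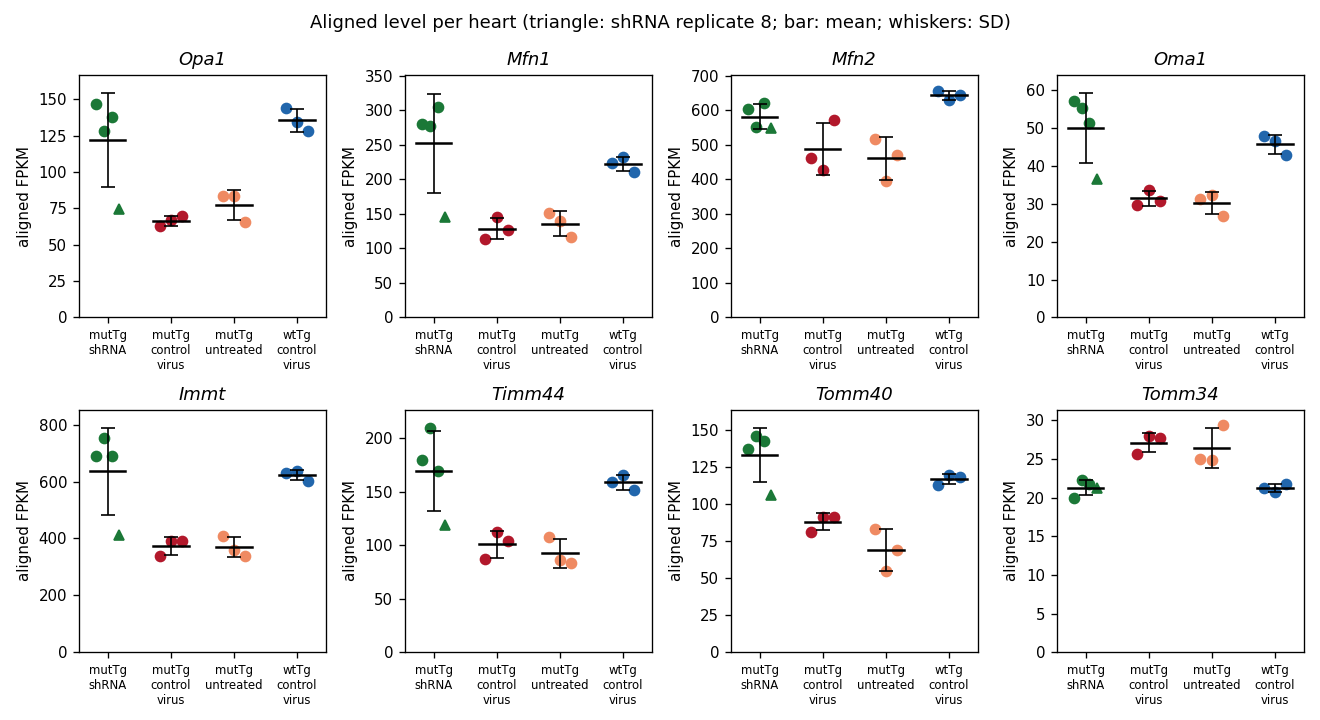
Aligned FPKM of 8 members in each heart; points are hearts, the triangle is shRNA replicate 8, bars are group means and whiskers SD (n = 4 for mutTg shRNA, 3 for the others), and each axis starts at 0. Opa1, Mfn1, Mfn2, Oma1, Immt, Timm44 and Tomm40 are lower in both mutTg groups without shRNA than in wtTg, and Tomm34 is higher. The differences of Mfn2 and Tomm40 between control virus and wtTg did not pass.

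Of the proteases that cleave Opa1, Oma1, which acts when mitochondria are stressed, was 57.1, 55.2, 51.2 and 36.5 FPKM in mutTg shRNA hearts and 29.7, 33.7 and 30.8 FPKM in mutTg control virus hearts. It was 31.2, 32.3 and 26.8 FPKM in mutTg untreated hearts and 47.7, 46.4 and 42.9 FPKM in wtTg hearts. Replicates 5 to 7 of the shRNA group lay above every wtTg heart, and replicate 8 lay between the mutTg hearts without shRNA and wtTg. Oma1 passed in control virus against wtTg (-0.53, adjusted p = 0.0286), in untreated against wtTg (-0.59, adjusted p = 0.0189) and in shRNA against control virus (0.64, 0.33 to 0.94, adjusted p = 0.0144; limma). Yme1l1, the protease of constitutive Opa1 processing, was 51.2, 51.9, 53.4 and 51.2 FPKM in mutTg shRNA hearts and 39.7, 44.6 and 34.9 FPKM in mutTg control virus hearts. It was 47.4, 50.4 and 34.9 FPKM in mutTg untreated hearts and 45.1, 47.8 and 43.8 FPKM in wtTg hearts. The mutTg hearts without shRNA overlapped wtTg, and the 4 hearts labelled shRNA, 51.2 to 53.4 FPKM, lay above the control virus hearts (adjusted p = 0.0398, limma).

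Of the 3 fission genes, 1 passed, in 1 comparison, shRNA against control virus, where 14.6% of all genes rose. Dnm1l, the GTPase that constricts mitochondria, was 118, 113, 120.3 and 98.6 FPKM in mutTg shRNA hearts and 84.0, 97.8 and 77.3 FPKM in mutTg control virus hearts. It was 90.5, 102 and 74.8 FPKM in mutTg untreated hearts and 103, 122 and 106 FPKM in wtTg hearts. It passed in shRNA against control virus (0.38, 0.10 to 0.66, adjusted p = 0.0469) but not in control virus or untreated against wtTg (adjusted p = 0.0775 and 0.107; limma), although both groups lay below wtTg without overlap. Fis1, an outer membrane adaptor, was 255, 347, 292 and 227 FPKM in mutTg shRNA hearts and 217, 251 and 240.4 FPKM in mutTg control virus hearts. It was 187, 161 and 209.6 FPKM in mutTg untreated hearts and 238, 227 and 242 FPKM in wtTg hearts. Control virus and wtTg hearts overlapped, with a log2 difference of 0.00 (-0.33 to 0.34), and untreated hearts were the lowest. Mff, the other adaptor, was 139, 183, 159 and 126 FPKM in mutTg shRNA hearts and 114, 143 and 124 FPKM in mutTg control virus hearts. It was 131, 136 and 112 FPKM in mutTg untreated hearts and 143, 166 and 149 FPKM in wtTg hearts. Fis1 and Mff passed in no comparison with all libraries; without replicate 8 both passed in shRNA against control virus (adjusted p = 0.0461 for Fis1 and 0.0442 for Mff, limma) and Fis1 also in untreated against wtTg (adjusted p = 0.0405), and Dnm1l in control virus against wtTg (adjusted p = 0.0390).

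Tomm34 ran against the other members that passed. It was 20.0, 22.2, 21.8 and 21.2 FPKM in mutTg shRNA hearts and 25.7, 27.9 and 27.7 FPKM in mutTg control virus hearts. It was 25.1, 24.9 and 29.4 FPKM in mutTg untreated hearts and 21.2, 20.7 and 21.8 FPKM in wtTg hearts. The 6 mutTg hearts without shRNA were above all others, and replicate 8 lay with the other hearts labelled shRNA and with wtTg. It rose with control virus (0.34, adjusted p = 0.0262) and untreated (0.30, adjusted p = 0.0361) and fell with the shRNA label (-0.34, adjusted p = 0.0215; limma), but on FPKM as deposited, without alignment, the untreated and shRNA differences were -0.02 and 0.11, so these directions rest on alignment. Tomm6os, an antisense RNA by name, was 1.58 to 2.99 FPKM over all libraries and passed in no comparison; the labels do not say whether counting used strand, so its reads cannot be told apart from those of any gene it overlaps.

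Ratios of members within a library do not depend on the scale of the library. Mfn2 over Mfn1 was 2.15, 1.99, 2.04 and 3.76 in mutTg shRNA, 4.05, 2.94 and 4.51 in mutTg control virus, 3.40, 2.83 and 4.05 in mutTg untreated, and 2.92, 2.71 and 3.06 in wtTg hearts. Replicates 5 to 7 of the shRNA group had the lowest ratios of all libraries, replicate 8 was among the mutTg hearts without shRNA, and every pair of groups overlapped. Opa1 over Oma1 was 2.58, 2.32, 2.69 and 2.04 in mutTg shRNA, 2.12, 2.00 and 2.27 in mutTg control virus, 2.68, 2.60 and 2.47 in mutTg untreated, and 3.01, 2.90 and 2.99 in wtTg hearts. All 10 mutTg libraries, shRNA or not, were thus below the 3 wtTg libraries, and the control virus libraries were below the untreated ones.

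Yme1l1 over Oma1 was 0.898, 0.941, 1.04 and 1.40 in mutTg shRNA, 1.34, 1.32 and 1.14 in mutTg control virus, 1.52, 1.57 and 1.30 in mutTg untreated, and 0.944, 1.03 and 1.02 in wtTg hearts. The 6 mutTg hearts without shRNA were above wtTg, and shRNA replicate 8 was with them. Of the 8 ratios examined, Timm23 over Timm22 was also below wtTg without overlap in untreated hearts, and the other 4 (Dnm1l over Mfn2, Tomm40l over Tomm40, Timm17a over Timm17b, Tomm20 over Tomm70a) overlapped in every comparison. No test was run on the ratios, since the smallest p of a two-sided exact permutation test is 0.1 for 3 hearts against 3 and 0.0571 for 4 against 3.

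**Figure D4:**
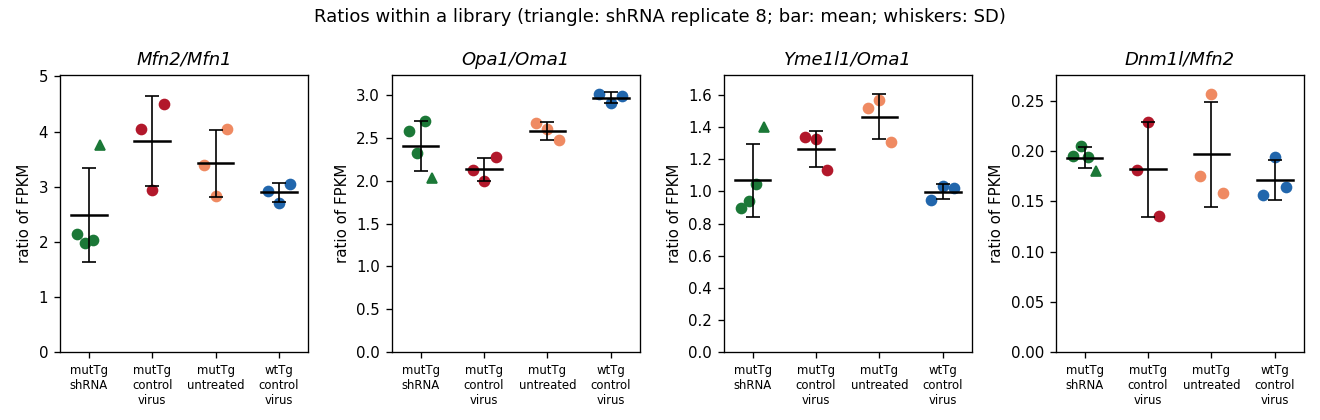
Ratios (no unit) of deposited FPKM within each library, for 4 pairs of members; points are hearts, the triangle is shRNA replicate 8, bars are means and whiskers SD. Opa1 over Oma1 is lower in all 10 mutTg hearts than in the 3 wtTg hearts.

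Other genes of the same pathways were described from lists. Of 15 tested adaptors of fission, fusion and transport along microtubules, 10 fell in control virus against wtTg, 9 fell untreated and 9 rose in shRNA hearts, with 0 in the opposite direction each time, against 12.0% of all genes lower, 15.5% lower and 14.6% higher in these comparisons. The transport GTPase Rhot2 fell by 1.35 on the log2 scale with control virus (adjusted p = 0.00962), the fission protein Mtfp1 by 1.49 (adjusted p = 0.0140) and Mief2, a Dnm1l receptor, by 0.74 (adjusted p = 0.00853; limma). With the shRNA label these rose by 1.08, 1.35 and 0.45. Of 16 inner membrane proteases, prohibitins and mitophagy genes, 6 fell with control virus, 8 untreated and 9 rose in shRNA hearts, against the same 12.0%, 15.5% and 14.6% of all genes; the mitophagy receptor Bcl2l13 fell by 0.45, the ubiquitin ligase Park2 by 0.95 and the prohibitin Phb2 by 0.65 with control virus.

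Of 18 genes of the import motor, presequence processing and folding, 7 fell and 1 rose with control virus, 11 fell and 1 rose untreated, and 8 rose and 1 fell with the shRNA label. Of all genes, 12.0% fell and 11.2% rose with control virus, 15.5% fell and 10.1% rose untreated, and 14.6% rose and 11.2% fell with the shRNA label. The presequence protease Pitrm1 fell by 0.42 with control virus, Aifm1, which takes part in import into the intermembrane space, by 0.75, and the motor cochaperone Grpel1 by 0.61. The member of this list that ran against it with control virus and again with the shRNA label was Hspe1, the cofactor of the matrix chaperonin, while untreated it was Gfer, an oxidase of the intermembrane space relay. Of 12 partners of Samm50 and Immt, 3 fell with control virus, 5 fell untreated, and 7 rose and 1, the MICOS subunit Chchd6, fell with the shRNA label, beside the same shares of all genes. The MICOS subunit Apoo fell by 0.82 with control virus and rose by 1.00 with the shRNA label, and the assembly subunit Mtx2 fell by 0.51 and rose by 0.54, while Dnajc11 fell by 0.34 with control virus and its difference with the shRNA label was 0.20 (adjusted p = 0.164, limma).

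Markers of cell types moved with these results. The summed aligned FPKM of 8 fibroblast markers ran from 1009 to 2793 in mutTg shRNA hearts, 2685 to 3170 in mutTg control virus, 2551 to 2594 in mutTg untreated and 908 to 1211 in wtTg hearts, and 6 of them rose in control virus against wtTg, 7 rose untreated and 5 fell with the shRNA label. The 2793 was replicate 8, and replicates 5 to 7 had sums of 1009 to 1293. For 8 macrophage markers the sums were 261 to 1050 in mutTg shRNA, 680 to 1152 in mutTg control virus, 628 to 837 in mutTg untreated and 335 to 344 in wtTg hearts, and 5 rose with control virus, 3 rose untreated and 3 fell with the shRNA label. The 1050 was again replicate 8, against 261 to 358 in replicates 5 to 7. The sum of 8 cardiomyocyte markers ran from 45470 to 108600 in mutTg shRNA, 40210 to 42070 in mutTg control virus, 33660 to 40580 in mutTg untreated and 62920 to 73900 in wtTg hearts. Of these markers, 3 fell with control virus, 3 fell untreated and 4 rose in shRNA hearts, and 7 of the 8 were above 0 in every library. The other, Myh6, was listed at 0 in wtTg replicate 2, mutTg control virus replicate 3 and mutTg untreated replicate 11. As deposited, Myh6 was 3078 to 17460 FPKM in the other libraries, so these sums do not compare like with like. The 45470 was replicate 8, and replicates 5 to 7 had sums of 91500 to 108600. Of the other lists, 2 of 6 endothelial markers fell with control virus, 1 fell untreated and 4 rose in shRNA hearts. Of 6 smooth muscle and pericyte markers 1 rose and 2 fell with control virus, and 1 rose and 2 fell untreated. In shRNA against control virus hearts 2 of these rose and 2 fell. Adipocyte, red cell and liver markers passed in 0 cases, and Ucp1, which defines brown fat, was listed at 0 in every library. Of all genes, 11.2% rose and 12.0% fell with control virus, and 10.1% rose and 15.5% fell untreated. With the shRNA label 14.6% rose and 11.2% fell. In bulk heart tissue, fewer cells of a type and less RNA per cell cannot be told apart, and the part of these markers in the results was not tested.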

How the data were processed

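PolyA RNA of 13 mouse hearts was read as 100-nt pairs; 11 small RNA libraries of the series were not used. The authors deposited 1 table of FPKM with 1 column per library, and the submitters' processing notes name FastQC 0.11.2, STAR 2.40, Cufflinks 2.2.1, Cuffdiff and build mm9 without a role for each. The annotation behind the table was not stated there. Read depth is unknown from FPKM, so no counting intervals are given and a listed 0 may be a gene that was not quantified.

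Values were taken as log2(FPKM + 1), and each library's median deviation from the gene means, over genes above 0 in every library, was subtracted; an aligned FPKM is 2 to that value minus 1, so that it can fall slightly below 0. The 12980 genes averaging 1 FPKM or more entered 1 linear model over the 4 groups in limma 3.58.1 (R 4.3.3; lmFit, eBayes with trend, two-sided). Adjustment was by Benjamini-Hochberg over all genes of a comparison, and a gene passed below 0.05. Folds and differences are on the log2(FPKM + 1) scale, which understates changes of low genes. Libraries were grouped by the sample names; libraries above 5 FPKM of Ddx3y were called male. Each library carries its own animal number, and p-values measure the spread between these hearts.

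Genes given in every library were up to 8 members with the smallest p that passed in each comparison and a fixed set of 19; up to 3 genes of each further list are named by smallest p in mutTg against wtTg hearts with control virus, beside those that ran against their list. Members and lists were chosen with earlier results of these data known. Promoter windows came from RefSeq (GRCm38.p6), which differs from the authors' build, and were used for sequence only. Alternatives tried were other scalings, pseudocounts of 0.1, filters, a robust fit, sex as a covariate, fits on the compared groups, the replicate number as a block and leaving out each library. The procedure was tested on simulated data.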

Additional observations from a re-analysis of the deposited data

Results flagged for a closer look

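Of 42 groups of 4 values examined (the 34 tested members and 8 ratios in the mutTg shRNA group), 2 held a heart far from the rest by Dixon's criterion, where chance alone gives about 1 in 20. Timm23 was at an aligned 29.14 FPKM in mutTg shRNA replicate 8, against 58.77 to 63.19 FPKM in replicates 5 to 7. The ratio of Mfn2 to Mfn1 was 3.762 in mutTg shRNA replicate 8, against 1.987 to 2.147 in replicates 5 to 7. This heart was the only female of its group.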

How the results depend on the processing

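In mutTg control virus against wtTg hearts, where 7 members passed, 3 passed on FPKM as deposited, 1 with sex as a covariate, 11 with sex as a covariate and no shRNA replicate 8, and 17 with only the compared groups. Leaving out 1 library gave 0 to 16. With the replicate number as a block 3 passed; the same-numbered hearts of these groups deviated with correlations of -0.196 and -0.107, so the numbers do not pair them. In mutTg untreated against wtTg hearts, where 17 passed, equal FPKM totals gave 9 and leaving out 1 library 3 to 19. In mutTg shRNA against mutTg control virus hearts, where 17 passed, 27 passed as deposited, 11 with quantile normalization, 8 with equal totals, 11 with FPKM scaled before 1 was added (chosen after seeing the data), 0 with sex as a covariate, 0 with only the compared groups, and 0 to 25 with 1 library left out. In mutTg shRNA against wtTg hearts 0 passed in all alternatives other than leaving out 1 library, which gave 0 to 2, and in mutTg control virus against mutTg untreated hearts 0 passed in all 18. The cause of these shifts was not tested. The counts are given here without the shares of all genes called in the same fits, so the shifts are not shown to be particular to the members. Of 41 calls on members, 39 kept their direction in every alternative. Several alternatives (the robust fit, the filters and the fits on the compared groups) leave the difference itself unchanged, so a direction could not turn there. The only calls that also passed in every alternative were those of Tomm40 and Tomm5 in mutTg untreated against wtTg hearts. As deposited, the difference of Tomm34 was -0.015 in mutTg untreated against wtTg and 0.113 in mutTg shRNA against mutTg control virus hearts. Scaling moved the median of all genes: as deposited it was -0.14, -0.33 and 0.47 for control virus against wtTg, untreated against wtTg and shRNA against control virus, and with equal totals 0.15, 0.22 and -0.23, while the members' medians were -0.38, -0.70 and 0.82, and -0.05, -0.09 and 0.08. Depth is unknown, and 3 or 4 hearts per group limit the precision.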

Other observations

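Regulators of mitochondrial biogenesis, a list of 12 tested genes, were lower in mutTg hearts where they passed. Between mutTg control virus and wtTg hearts 4 fell and 0 rose (limma, adjusted p under 0.05), and untreated 4 fell and 0 rose, against 12.0% and 15.5% of all genes lower. Tfb2m, a mitochondrial transcription factor, fell by 0.72 on the log2 scale with control virus, and the estrogen-related receptors Esrrb and Esrrg fell by 0.73 and 0.75. In mutTg shRNA against mutTg control virus hearts 6 rose and 1, the coactivator Pprc1, fell, against 14.6% of all genes higher and 11.2% lower.

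Subunits of respiratory complex I and of the mitochondrial ribosome gave larger medians than the import, fusion and fission genes. Of 38 tested complex I genes 9 fell with control virus and 34 fell untreated, with 0 higher, and 27 rose in shRNA hearts, with 0 lower, against 12.0%, 15.5% and 14.6% of all genes in these directions; the medians were -0.69, -0.91 and 0.82, against -0.25, -0.38 and 0.38 for the import, fusion and fission genes. Of 77 ribosomal genes 26 fell and 1 rose with control virus, 54 fell untreated, and 44 rose and 1 fell in shRNA hearts, against the same shares of all genes (11.2% higher with control virus and 11.2% lower in shRNA hearts), with medians of -0.47, -0.62 and 0.55. The difference between these lists was not tested.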
